A study of Mus musculus with 69 samples.

Results

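The chemokines and chemokine receptors of the kidney are the small secreted proteins that guide leukocytes through tissue and the G protein coupled receptors that read them. Their genes were taken by symbol, as every gene named Ccl, Cxcl, Cx3cl, Xcl, Ccr, Cxcr, Cx3cr or Xcr followed by a number, with at least 100 read counts in total over the original libraries. Of 58 symbols with such a name, 49 reached that total, out of 24523 genes with values in all. The 49 were 18 CC ligands, 12 CXC ligands, the CX3C ligand Cx3cl1, the XC ligand Xcl1 and 17 receptors. The receptor Cxcr2 lay just inside the minimum with 103 counts, and the ligand Ccl1 just outside it with 79. The others left out were Ccl26 with 3 counts, Ccr1l1 with 29, Cxcl15 with 29 and Cxcr1 with 4, together with Ccl21a, Ccl21b, Ccl21c and Ccl27b, which had no count in any original library.

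Expression was measured by RNASeq of whole perfused kidney from NZB/W F1 mice, the cross of the NZB and NZW strains that develops a lupus-like nephritis with age. There were 30 young mice of 12 weeks, 27 nephritic mice of 30 to 45 weeks killed after the onset of heavy proteinuria, and 8 mice of 36 to 50 weeks in remission, which had been treated with cyclophosphamide, CTLA4Ig and anti-CD40L antibody after they became nephritic. Kidneys were taken at Zeitgeber time (ZT, hours after lights on) 0, 4, 8, 12, 16 and 20 from young and nephritic mice, with 3 to 7 mice a time point, and at ZT0 and ZT12 from remission mice, with 4 each. All groups carried the same strain background, and none held an untreated aged mouse without nephritis: age and nephritis cannot be told apart here. Remission mice likewise differed from young mice in age, past nephritis and treatment together. In whole tissue, more cells of a type and more RNA per cell also cannot be told apart.

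Chemokines are grouped by the spacing of their first cysteines into CC, CXC, CX3C and XC ligands, and most receptors bind several ligands of 1 class. In inflamed kidney, Ccl2 and its relatives recruit monocytes through Ccr2, Cxcl1 and Cxcl2 recruit neutrophils through Cxcr2, Cxcl9 and Cxcl10 recruit activated T cells through Cxcr3, and Cxcl13 draws B cells into lymphoid aggregates through Cxcr5. Cx3cr1 is the fractalkine receptor of resident renal macrophages and dendritic cells, and its ligand Cx3cl1 is made by epithelium and endothelium.

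Some libraries needed care. Libraries held 13311278 to 48075977 counts, the remission mice having 21849912 at most and the young mice 25257530 at least. Remission libraries and others of the study came from different runs, the former being read together with repeat libraries of 4 young and nephritic mice, so run and remission are separated only through those repeats. Of these repeats, 3 correlated best with their own first library (Pearson r over 14164 genes, 0.994 to 0.996), while the repeat of the nephritic ZT12 mouse RX11RU correlated at 0.969 with its own first library and at 0.994 with that of mouse RX11LU. For that mouse Cxcl13 read 18.95 counts scaled to a library of 1000000 (CPM) in the first library and 2.61 in the repeat. The remission ZT12 mouse s9 had 27.6 CPM of the clock gene Arntl, against 3.20 to 4.92 in the 3 other remission ZT12 mice. The nephritic ZT12 mouse HIL5RU held the highest nephritic value of 27 of the 49 genes. Results are given with all first libraries, and counts without RX11RU, s9 or HIL5RU stand beside them.

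Cxcl1 and Cxcl2, neutrophil ligands with large falls in remission, lie with Cxcl3 in a gene cluster on chromosome 5, and their upstream sequences are shown beside those of the interferon-inducible Cxcl10 and of the B cell ligand Cxcl13 on the same chromosome. The sequences are the 250 bases before the start of each gene in RefSeq (GRCm38.p6), written 5′ to 3′ on the strand of the gene. Capitals mark matches to the kappaB motif, the site of NF-kappaB factors, and to the interferon-stimulated response element (ISRE) motif, GAAA, any 2 bases and GAAA, on either strand.

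Cxcl1, chr5:90890995-90891244, plus strand: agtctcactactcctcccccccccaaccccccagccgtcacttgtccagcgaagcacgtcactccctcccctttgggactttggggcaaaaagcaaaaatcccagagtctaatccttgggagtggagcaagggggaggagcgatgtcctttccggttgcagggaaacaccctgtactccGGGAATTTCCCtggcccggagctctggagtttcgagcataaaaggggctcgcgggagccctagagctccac

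Cxcl2, chr5:90903649-90903898, plus strand: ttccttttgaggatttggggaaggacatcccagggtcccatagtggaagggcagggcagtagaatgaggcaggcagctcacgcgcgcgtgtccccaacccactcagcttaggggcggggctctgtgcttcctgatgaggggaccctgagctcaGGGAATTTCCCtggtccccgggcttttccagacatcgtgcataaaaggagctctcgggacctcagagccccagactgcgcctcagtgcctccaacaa

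Cxcl3, chr5:90785851-90786100, plus strand: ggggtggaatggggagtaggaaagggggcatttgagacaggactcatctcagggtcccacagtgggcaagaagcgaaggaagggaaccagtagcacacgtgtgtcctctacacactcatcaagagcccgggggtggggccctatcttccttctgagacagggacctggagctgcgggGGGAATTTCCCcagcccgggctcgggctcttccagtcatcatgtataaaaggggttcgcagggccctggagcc

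Cxcl10, chr5:92348890-92349139, minus strand: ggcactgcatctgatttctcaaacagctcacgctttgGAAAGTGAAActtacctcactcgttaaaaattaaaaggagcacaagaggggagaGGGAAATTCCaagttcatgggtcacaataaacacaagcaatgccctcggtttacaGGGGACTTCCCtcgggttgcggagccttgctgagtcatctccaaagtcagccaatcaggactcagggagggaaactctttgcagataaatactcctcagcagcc

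Cxcl13, chr5:95956689-95956938, plus strand: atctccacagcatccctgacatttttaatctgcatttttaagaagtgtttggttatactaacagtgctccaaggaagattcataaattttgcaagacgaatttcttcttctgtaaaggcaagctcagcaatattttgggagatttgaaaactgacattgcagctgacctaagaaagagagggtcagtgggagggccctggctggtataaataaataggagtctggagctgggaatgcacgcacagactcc

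The Cxcl1, Cxcl2 and Cxcl3 windows held the same run of capitals, which began 71, 97 and 73 bases before the start. Cxcl10 held 2 kappaB runs and 1 ISRE match, the latter beginning 213 bases before the start, and Cxcl13 held neither motif in this window. Of the 49 genes, 35 had an upstream window in the table. A kappaB match stood in 9 of these 35 (25.7%), against 7.25% of 32851 windows in all: Ccl20, Ccl9, Ccr1, Ccr3, Ccr6, Cxcl1, Cxcl10, Cxcl2 and Cxcl3. The ISRE motif stood in 3 (8.57%, against 2.98% of all), namely Ccl19, Cxcl10 and Cxcl14. The E-box CACGTG, a motif bound by clock factors, stood in 2 (5.71%, against 6.02% of all), namely Cxcl3 and Xcr1. The family was scored by gene, where any window of a gene could match, and the background by single window, so the shares are unlike measures. These are matches of letters only, and windows of neighbouring genes of 1 family share sequence.

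Nephritic kidneys carried more RNA of nearly the whole family than young kidneys. Of 48 genes tested, 43 were higher (89.6%) and 1 was lower, at an adjusted p of at most 0.05 in edgeR's quasi-likelihood test with Benjamini-Hochberg adjustment over all genes, where 28.1% of all 17521 genes were higher and 33.9% were lower (62.1% in either direction). The median log2 difference was 2.05 over the family and -0.03 over all genes. The 4 genes that did not pass were the ligands Ccl24, Ccl25, Ccl27a and Ccl28, and Cxcr2 had too few counts to be tested. Of the 48, 40 also reached the count minimum in the young mice alone, and the other 8 passed it only with the nephritic mice counted, which by itself favours a higher level there. No nephritic mouse overlapped a young mouse for 4 genes, among them Ccl7 and Cx3cr1, where 0.890% of all genes were so separated. The sequencing sets of young and nephritic mice were inferred from mouse names. In the mice of the larger sequencing set alone, 43 genes were higher and 1 lower, 43 of these calls being shared, with Cxcl3 lost and Ccl28 gained. The counts were 43 and 1 without RX11RU and without HIL5RU.

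**Figure D1:**
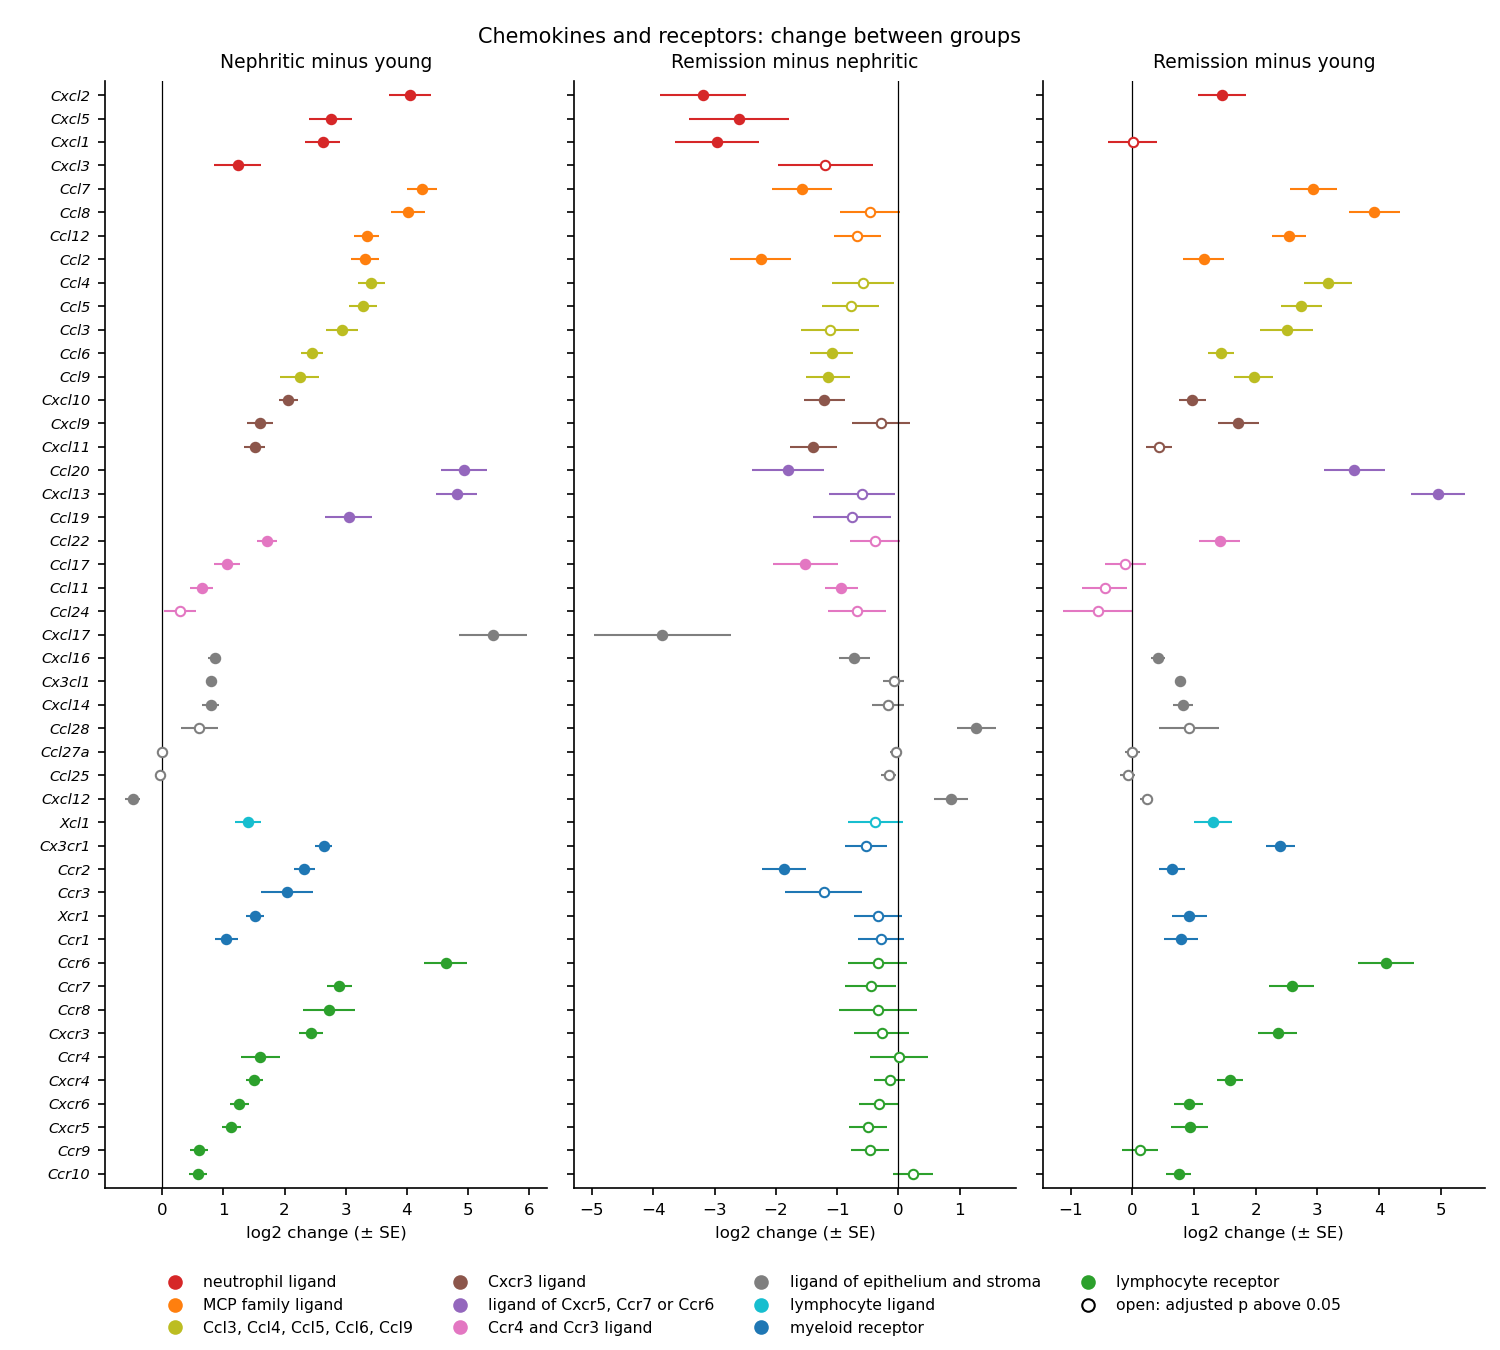
log2 change (± SE, edgeR) of each gene in nephritic against young, remission against nephritic and remission against young mice, with genes on the vertical axis grouped and coloured by role and open circles for an adjusted p above 0.05. In the left panel 42 of the 47 genes drawn lie right of 0 with filled circles, in the middle panel the filled circles left of 0 are mostly ligands, and in the right panel 30 of the 40 genes drawn are filled and right of 0.

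Cxcl13, Ccl20 and Ccl19, the 3 ligands tested of Cxcr5, Ccr6 and Ccr7, the receptors by which lymphocytes home, all rose. Ccl21a, Ccl21b and Ccl21c had no count and could not be compared. Cxcl13 (GRCm38 chromosome 5, 95956939 to 95961068) was at 0.0988 CPM in the lowest young mouse, 0.368 in the median and 1.77 in the highest, and at 0.786, 9.20 and 118 CPM in nephritic mice. In 25 of 27 nephritic mice it exceeded every young mouse. Its log2 difference was 4.82 ± 0.34 (SE, adjusted p = 6.78e-18). Ccl20, the Ccr6 ligand made by injured epithelium, was found at 0 to 0.212 CPM in young and 0.102 to 6.58 CPM in nephritic mice, a log2 difference of 4.94 ± 0.38. Ccl19, a ligand of Ccr7, stayed low, with medians of 0.0384 and 0.185 CPM, and its log2 difference was 3.05 ± 0.38. Ccl20 and Ccl19 were at 0 in 10 and 12 of 30 young mice, so their folds rest on few reads in the young, and neither reached 100 counts over the young mice alone.

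The 4 monocyte-attracting ligands of the Ccl2 gene cluster on chromosome 11 all rose. Ccl2 itself (chromosome 11, 82035577 to 82037452) was at 0.137, 0.844 and 1.96 CPM in the lowest, median and highest young mouse and at 1.64, 8.455 and 33.9 CPM in nephritic mice, and in 26 of 27 nephritic mice it lay above every young one. Its log2 difference was 3.32 ± 0.23 (adjusted p = 6.7e-18). Ccl7, a further Ccr2 ligand, differed by 4.25 ± 0.24, and its nephritic values of 0.983 to 12.1 CPM lay entirely above the young values of 0 to 0.671 CPM. Ccl8 had the highest mean of the group, with a median of 0.493 CPM in young and 6.32 CPM in nephritic mice.

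The 5 ligands Ccl3, Ccl4, Ccl5, Ccl6 and Ccl9, which attract monocytes and T cells, all rose, by a median of 2.94 on the log2 scale. Among them Ccl6, a macrophage chemokine of rodents, had the highest nephritic mean at 13.5 CPM, against 2.39 CPM in young mice. Ccl5, the T cell and macrophage chemokine, went from a median of 1.34 to 11.1 CPM. The 3 interferon-inducible ligands of Cxcr3 rose by a median of 1.59, and Cxcl10, the most abundant of them, went from a median of 4.61 to 19.6 CPM. Cxcl11, read at a median of 0.922 and 2.42 CPM, is annotated as a transcribed pseudogene in the reference.

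The neutrophil ligands rose in all 4 genes, with a median of 2.69. Cxcl1 was at 0.589, 2.47 and 9.22 CPM in the lowest, median and highest young mouse and at 1.67, 12.7 and 78.3 CPM in nephritic mice, so the groups overlapped and 18 of 27 nephritic mice lay above every young one. For Cxcl2 this held in 26 of 27, from a young median of 0.180 to a nephritic median of 2.02 CPM. Of 4 neutrophil marker genes tested, 1 (Csf3r) was higher in nephritic kidneys, and the summed level of the 4 was 0.564 to 13.9 CPM in young and 1.88 to 18.1 CPM in nephritic mice. Cxcr2, the receptor of these ligands, had a nephritic median of 0.0582 CPM and was at 0 in 6 of 27 nephritic mice.

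Ligands known from epithelium and stroma included the most abundant genes of the family per length of transcript, and their 8 genes had a median difference of 0.70 on the log2 scale. Cxcl17 and Ccl25 of this group stood far lower, at ranks 39 and 20 of the family in young mice. Per kilobase of exon, the highest median levels in young mice were those of Cxcl12 (17.97 CPM per kb), Cx3cl1 (14.9) and Cxcl16 (14.6). In nephritic mice Cx3cl1 (26.2 CPM per kb) and Cxcl16 (25.9) came first and Cxcl12 (13.9) followed. Cxcl13 went from rank 29 of the family in young mice (0.320 CPM per kb) to rank 9 (8.00), and Ccl2 from rank 15 to rank 10. Ranks of genes with neighbouring levels were not tested.

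Cxcl12, which retains leukocytes and progenitors through Cxcr4, was the only one of the 48 that was lower in nephritic mice. It was at 73.3, 147 and 226 CPM in the lowest, median and highest young mouse and at 33.7, 113 and 208 CPM in nephritic mice. The groups overlapped broadly, and the log2 difference was -0.49 ± 0.12 (adjusted p = 0.000545). Cxcl17, a mucosal chemokine, went the other way, by 5.42 ± 0.56 (adjusted p = 4.64e-12), the largest fitted value of the family, and it reached the count minimum only with the nephritic mice counted. It was at 0 in 11 of 30 young mice with 0.185 CPM at most, and it ranged from 0.0339 to 33.1 CPM in nephritic mice, 21 of which lay above every young mouse. Ccl27a and Ccl25, constitutive chemokines of skin and gut, had log2 differences of 0.00 ± 0.07 and -0.04 ± 0.05. Ccl28, a mucosal chemokine, had one of 0.61 ± 0.31 (adjusted p = 0.0797) and spread from 2.26 to 215 CPM within the young group.

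All 16 receptors tested were higher in nephritic mice, by a median of 1.82 on the log2 scale. Of the 16, 12 also reached the count minimum in the young mice alone. The others, Ccr6 among them, passed it only with the nephritic mice counted, which by itself favours a higher level there. Cx3cr1 (chromosome 9, 120048683 to 120068296) was at 3.145, 4.02 and 6.90 CPM in the lowest, median and highest young mouse and at 9.34, 25.9 and 83.6 CPM in nephritic mice, with a log2 difference of 2.64 ± 0.14 (adjusted p = 5.18e-22). All 27 nephritic mice lay above every young one. Ccr2, the monocyte receptor of Ccl2, went from a median of 4.64 to 25.1 CPM, although reads of similar neighbouring receptor genes may be shared. Among lymphocyte receptors, Ccr6 differed most (4.64 ± 0.35), from a young median of 0.0354 CPM with 12 of 30 mice at 0 to a nephritic median of 0.904 CPM. Cxcr4, the most abundant of that group, went from a median of 2.31 to 5.74 CPM.

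**Figure D2:**
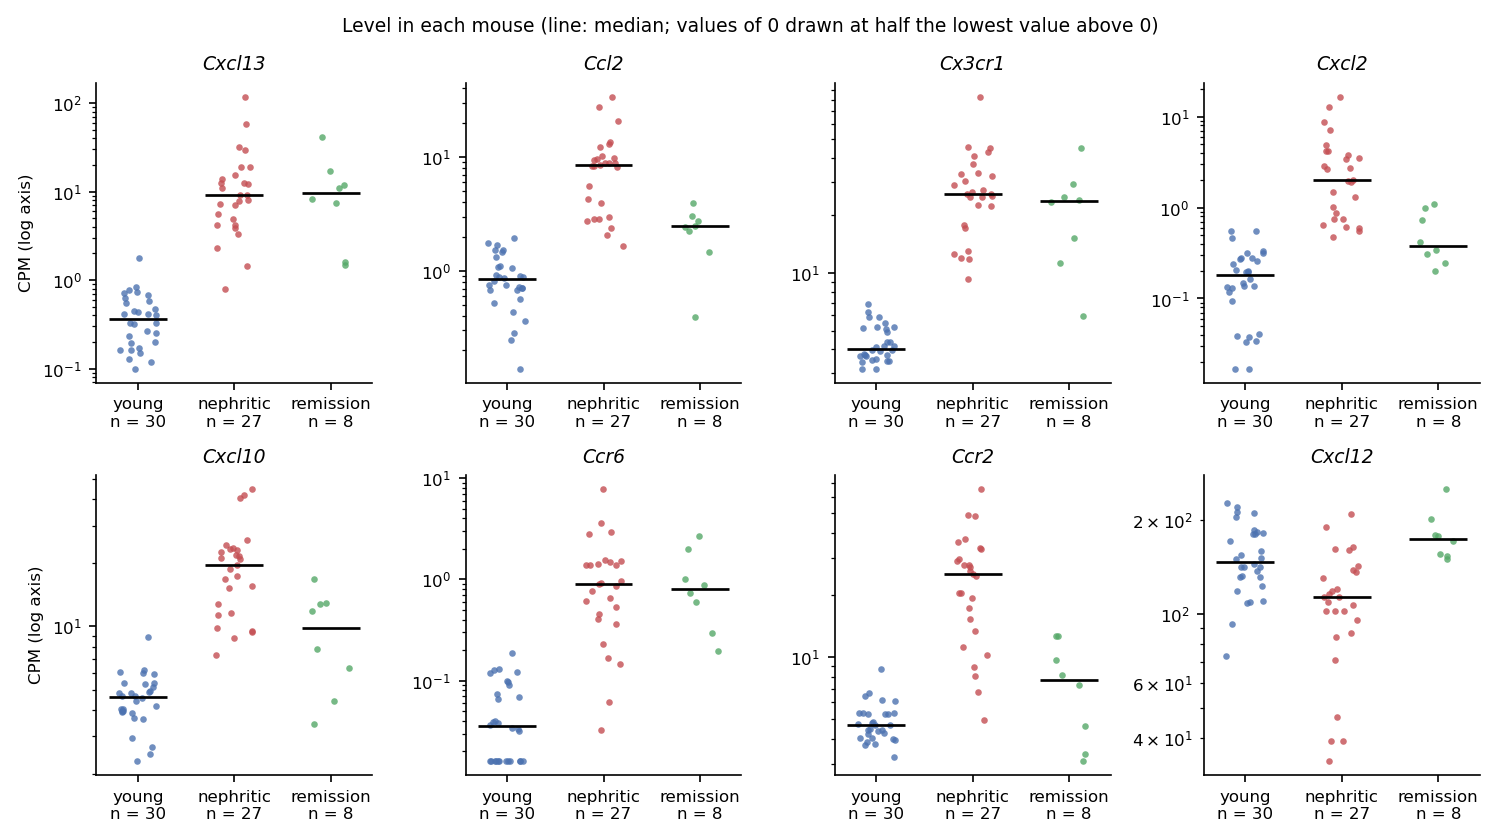
Level in each mouse (CPM, log axis) of 8 chemokine and receptor genes by group, with 30 young, 27 nephritic and 8 remission mice as points and the group median as a line. Cx3cr1 shows no overlap between young and nephritic mice, Cxcl2 and Ccr2 fall back towards young levels in remission, Cxcl13 and Ccr6 do not, and Cxcl12 has its highest median in remission.

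Markers of immune cells moved with these genes. All 8 macrophage and dendritic cell markers, all 6 B cell markers and all 7 T cell markers tested were higher in nephritic than in young mice. Their summed levels were 102 to 242 CPM in young and 251 to 1522 CPM in nephritic mice for macrophages and dendritic cells, 1.78 to 24.7 and 8.22 to 346 CPM for B cells, and 6.65 to 14.4 and 11.04 to 195 CPM for T cells. The 2 tubular injury genes Havcr1 and Lcn2 summed to 25.6 to 128 and 27.5 to 1506 CPM. No defining marker of macrophages, B cells or T cells was at 0 in every mouse of a group, although Pax5 was at 0 in 17 of 30 young mice. The part of cell numbers or of tubular injury in the chemokine changes was not tested.

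Which of these changes were lower after induced remission was asked at ZT0 and ZT12, where 8 remission, 13 nephritic and 14 young mice could be compared. The genes lower in remission were nearly all ligands. Of 48 genes tested against nephritic mice, 15 were lower (31.2%) and 2 were higher (4.17%), where 19% and 16.8% of 16344 genes were (35.8% in either direction). The median log2 difference was -0.55 over the family and -0.02 over all genes. Of the 15 lower genes, 14 were among the 32 ligands and 1, Ccr2, among the 16 receptors, and 0 of the 10 lymphocyte receptors passed in edgeR's test or had an unadjusted p under 0.05. Whether ligands fell more often than receptors was not tested. No gene of the family separated remission from nephritic mice without overlap, where 2.86% of all genes were lower without overlap and 1.14% were higher.

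The 4 neutrophil ligands had a median difference of -2.775 on the log2 scale, and 3 of them fell. Cxcl2 was at 0.202, 0.378 and 1.09 CPM in the lowest, median and highest of the 8 remission mice and at 0.469, 3.47 and 16.6 CPM in the 13 nephritic mice of the same times. All 8 remission mice were under the nephritic median and 5 were under every nephritic mouse. Its log2 difference was -3.18 ± 0.70 (adjusted p = 0.00182). Cxcl1 fell by 2.95 ± 0.69 on the log2 scale (adjusted p = 0.00262), to remission values of 1.125 to 12.2 CPM with a median of 1.885, beside the young median of 2.47. Cxcl5, a further Cxcr2 ligand, fell by 2.60 ± 0.81 (adjusted p = 0.0174), and Cxcl3 had a log2 difference of -1.19 that did not pass (adjusted p = 0.232). Cxcl17 had the largest fitted fall in the family. It fell by 3.85 ± 1.12 on the log2 scale (adjusted p = 0.0115), to 0.0519 to 0.993 CPM. Cxcl17 and Cxcl5 lacked the minimum count even in remission and young mice together, and entered this fit only through the nephritic mice. That by itself favours a lower level in remission, and Cxcl5 was at 0 in 2 of 8 remission mice.

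Ccl2 was at 0.393, 2.47 and 3.97 CPM in the lowest, median and highest remission mouse, all 8 lying under the nephritic median of 8.87 CPM. Its difference was -2.25 ± 0.50 (adjusted p = 0.0019). The neighbouring Ccl7 and Ccl11 fell by 1.57 and 0.93, while Ccl8 (-0.46) and Ccl12 (-0.675) of the same cluster did not pass. Ccr2 fell by 1.87 ± 0.35 (adjusted p = 0.000493), from a nephritic range of 8.87 to 65.4 CPM at these times to 3.10 to 12.7 CPM, whereas Cx3cr1 differed by -0.52 ± 0.34 (adjusted p = 0.24), at 5.95 to 45.2 CPM against 11.8 to 83.6 CPM. The remaining lower genes were Ccl20, Ccl17, Cxcl11, Cxcl10, Ccl9, Ccl6 and Cxcl16, by 0.72 to 1.80.

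Cxcl13 did not pass. It was at 1.475, 9.64 and 41.2 CPM in the lowest, median and highest remission mouse and at 3.885, 12.35 and 118 CPM in nephritic mice of the same times, a log2 difference of -0.60 ± 0.54 (adjusted p = 0.402). In 6 of 8 remission mice it was above every young mouse. The 2 genes that rose were Ccl28 (1.27 ± 0.32, adjusted p = 0.00473), at 56.3 to 148 CPM against 7.865 to 66.6 CPM, and Cxcl12 (0.86 ± 0.27, adjusted p = 0.0185), at 150 to 251 CPM against 33.7 to 208 CPM, both with all 8 remission mice above the nephritic median. T cell markers did not pass in any of 7, B cell markers passed in 1 of 6 (Pax5, higher), and macrophage and dendritic cell markers in 3 of 8 (Csf1r higher, Itgam and Cd14 lower). Their summed levels in remission were 11.7 to 97.5 CPM for T cells, 8.11 to 172 CPM for B cells and 275 to 865 CPM for macrophages and dendritic cells, and the 2 tubular injury genes summed to 91.1 to 185 CPM, against 32.2 to 1506 CPM in nephritic mice at ZT0 and 59.1 to 942 CPM at ZT12. Lcn2, a tubular injury gene, fell by 2.93 ± 0.90 on the log2 scale (adjusted p = 0.0159), and Havcr1 had a difference of -1.64 ± 0.65 (adjusted p = 0.0552). Their part in these results was not tested.

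Compared with young mice, remission mice had higher levels of 31 of 41 genes tested (75.6%) and lower levels of none, where 26.2% of 15982 genes were higher and 26.8% lower (53.0% in either direction). No gene was lower at an unadjusted p under 0.05 either. The median log2 difference was 1.16 over the family and -0.01 over all genes. The largest differences were those of Cxcl13 (4.96 ± 0.43, adjusted p = 8.36e-09), Ccr6 (4.11 ± 0.45), Ccl8 (3.92 ± 0.42), Ccl20 (3.60 ± 0.50) and Ccl4 (3.17 ± 0.39). Ccr6 and Ccl20, at 0 in 12 and 10 of 30 young mice, reached the count minimum only with the remission mice counted. That by itself favours a higher level in remission, and for Ccr6 also a lack of overlap. The minimum was applied to the summed counts of both groups, so other genes with few young counts may have entered likewise. Ccl3, for example, was at 0 to 0.331 CPM in the 14 young mice of these times. How many of the 41 entered in this way was not counted, and the share of 75.6% carries the same limit. Ccl2 differed by 1.16 ± 0.33 (adjusted p = 0.00506) and Cx3cr1 by 2.40 ± 0.24 (adjusted p = 3.65e-08), while Cxcl1 had a log2 difference of 0.00 ± 0.39 (adjusted p = 0.994). Ccr6, Cx3cl1, Cx3cr1 and Cxcl13 did not overlap between remission and young mice of these times, 4 genes where 3.49% of all genes were higher and 4.46% lower without overlap.

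Set side by side, the comparisons gave a few patterns among the 49 genes, although they share mice. The share of all genes with each pattern was not counted. In 9 genes the level was higher in nephritis, lower in remission than in nephritis and higher in remission than in young mice, and these were Ccl2, Ccl20, Ccl6, Ccl7, Ccl9, Ccr2, Cxcl10, Cxcl16 and Cxcl2. In 4 (Ccl11, Ccl17, Cxcl1 and Cxcl11) the last difference did not pass. In 22 genes the level was higher than in young mice in both disease and remission and the fall did not pass, among them Cxcl13, Cx3cr1, Ccl8, Ccr6, Ccr7 and Cxcr3. Ccr9 was higher in nephritis alone. Cxcl17 and Cxcl5 were higher in nephritis and lower in remission, and Ccl19, Ccr3, Ccr4, Ccr8 and Cxcl3 higher in nephritis, with too few counts for the last test in all 7. Cxcl12 was lower in nephritis and higher in remission, Ccl28 was higher in remission than in nephritis, and Ccl24, Ccl25 and Ccl27a passed in no comparison.

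Because the remission mice were in another run than the first libraries of the other mice, these counts were also computed with run as a covariate, fixed by the repeat libraries, an alternative in which a repeat is treated as a further mouse. With all 4 repeats 12 genes were lower and 1 higher in remission than in nephritis, and with the 3 repeats that matched their own mouse 11 were lower and 1 higher. Over all genes, 2357 of 16941 were lower and 1525 higher with 4 repeats. With 3 repeats 2203 of 16919 were lower and 1304 higher, and without the covariate 3106 of 16344 and 2744. Ccl28, Ccl11, Ccl17, Ccl6 and Ccl9 no longer passed in either, although Ccl28 had log2 differences of 1.31 (adjusted p = 0.16) and 1.34 (adjusted p = 0.221). Cx3cl1 was newly called with the 4 repeats but not with the 3. Cxcl13 then had log2 differences of 1.12 (adjusted p = 0.351) and 0.42 (adjusted p = 0.779) against nephritic mice. Against young mice, 20 and 17 genes were higher, of which 17 and 15 were among the 31 called without the covariate. Calls over all genes fell as well, from 8468 of 15982 without the covariate to 2225 of 16941 and 1589 of 16919. Of the 9 genes that had fallen in part, Ccl2, Ccr2, Cxcl10, Cxcl16 and Cxcl2 no longer passed against young mice in either fit, nor Ccl20 with the 3 repeats. Of the 22 genes higher in both disease and remission, Ccl22, Ccr1, Ccr10, Cx3cl1, Cxcl14, Cxcr5, Cxcr6, Xcl1 and Xcr1 no longer passed against young mice in either fit. Cxcl9 did not with the 3 repeats. Cxcl13 was at 6.46 (adjusted p = 1.51e-05) and 5.87 (adjusted p = 0.000311), and Ccl2 no longer passed, at 1.12 (adjusted p = 0.253) and 0.98 (adjusted p = 0.439). Without RX11RU and s9, 15 genes were lower in remission than in nephritis, and without HIL5RU 13 were, Ccl17 and Cxcl16 no longer passing. Without s9 alone, Cxcl16 did not pass against nephritic mice and Ccr1 did not pass against young mice.

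Within each group, levels were next compared across the 6 times of day. In young mice 8 of 40 genes tested varied with time, where 39.8% of 16521 genes did. Of the 8, 6 had their highest median at ZT12, ZT16 or ZT20. Cxcl16, a membrane-bound chemokine for Cxcr6, was the clearest (adjusted p = 3.7e-05) and peaked in the light phase, at a median of 58.0 CPM (54.8 to 66.2) at ZT4 against 38.3 CPM (36.5 to 42.7) at ZT16, with no overlap between these times. Cxcl12 (adjusted p = 0.00431) had its highest median at ZT12, 205 CPM (137 to 226), and its lowest at ZT4, 130 CPM (92.97 to 144).

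Cxcl1 (adjusted p = 0.0372) was highest at ZT16, with a median of 5.08 CPM against 1.70 at ZT4, and Cxcl11 (adjusted p = 0.0372) also at ZT16, at 1.59 against 0.764 CPM. Ccl11, the eosinophil ligand (adjusted p = 0.0146), and Ccl6 (adjusted p = 0.018) shared the ZT16 maximum, at 0.691 and 3.24 CPM, and had their lowest medians at ZT4 (0.207 CPM) and ZT8 (1.58 CPM). Ccl4 (adjusted p = 0.0181) was highest at ZT20 with 0.447 CPM and lowest at ZT8 with 0.150 CPM. Cx3cr1 (adjusted p = 0.0285) was the only receptor of the 8, with medians of 5.23 CPM at ZT0 and 3.61 CPM at ZT8. Among markers in young mice, 3 of 8 for macrophages and dendritic cells, 3 of 5 for B cells and 0 of 7 for T cells varied with time. Markers of tissue around the kidney moved with time as well. All 4 adrenal cortex markers passed in young mice, and their summed level had a median of 638 CPM at ZT16 (6.99 to 1425), where 4 of these chemokine genes had their highest median, against 5.30 CPM at ZT4 and 5.83 at ZT8. All 3 adipocyte markers also passed, with a summed median of 158 CPM at ZT12 and 153 at ZT16 against 44.3 at ZT8. The part of these tissues in the time differences was not tested.

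Several of these calls rested on single mice. Cxcl1 no longer passed without ZT4RU, ZT40, ZT8LL, ZT16LU, ZT16LL, CR6RU or CR6LL, each left out alone (adjusted p 0.0501 to 0.142 in those 7 fits). Cxcl11 did not without ZT0RL, ZT0LU, ZT4RL, ZT4LU, ZT40, ZT16RU or ZT16LL (0.0507 to 0.155). Cx3cr1 did not without ZT0RU, ZT0RL, ZT8LL or CR6RL (0.0503 to 0.059), nor Ccl11 without ZT12RL (0.0503). Cxcl16, Cxcl12, Ccl4 and Ccl6 passed whichever mouse was left out, but in a cosinor fit Ccl4 (adjusted p = 0.281) and Ccl6 (0.098) did not. Without ZT8LU 13 genes passed. In the larger sequencing set alone 5 of the 8 passed, without Cxcl1, Cxcl11 and Cxcl12.

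In nephritic mice 11 of 48 genes varied with time (22.9%), where 21.6% of 16872 genes did, a share close to that of all genes. Receptors of lymphocytes and the ligands Cxcl13, Ccl19, Ccl8, Ccl3 and Ccl4 made up most of the 11, with their highest medians at ZT12 or ZT16. Cxcl13 was at 3.885 to 18.8 CPM at ZT0 (7 mice), 2.29, 3.28, 8.03 and 9.25 CPM at ZT4, 0.786, 1.45, 4.18 and 7.06 CPM at ZT8, 9.20 to 118 CPM at ZT12 (6 mice), 10.98, 29.2 and 57.45 CPM at ZT16, and 5.63, 12.1 and 13.85 CPM at ZT20. All mice of ZT12 and ZT16 lay above all mice of ZT8 (adjusted p over the 6 times = 0.0119). In young mice the same test of Cxcl13 gave an adjusted p of 0.256.

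The B cell and T cell receptors had a like order of medians. Ccr6 (adjusted p = 0.0153) had medians of 2.81 CPM at ZT16 and 0.259 CPM at ZT8, Ccr7 (0.0153) of 4.62 CPM at ZT16 and 1.58 CPM at ZT0, and Cxcr5 (0.0329) of 6.17 CPM at ZT16 and 2.74 CPM at ZT8. Cxcr3 (adjusted p = 0.0242) was at 6.23 CPM at ZT16 and 1.88 CPM at ZT8, and Cxcr4 (0.0232) at 8.31 CPM at ZT12 and 4.06 CPM at ZT8. Of the ligands, Ccl8 (adjusted p = 0.0167) went from 2.51 CPM at ZT8 to 18.95 CPM at ZT16, Ccl4 (0.025) from 1.72 to 4.32 CPM at the same times, Ccl3 (0.0124) from 0.850 CPM at ZT0 to 2.59 CPM at ZT12, and Ccl19 (0.00852) from 0.0829 CPM at ZT4 to 0.398 CPM at ZT16. Ccl3 and Ccl4 have overlapping annotated spans, and their counts may share reads. Ccl27a (adjusted p = 0.0218) stood apart, with its highest median at ZT8 (14.6 CPM) and its lowest at ZT4 (10.1 CPM). Ccl2 and Cx3cr1 did not pass, with adjusted p of 0.578 and 0.542.

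**Figure D3:**
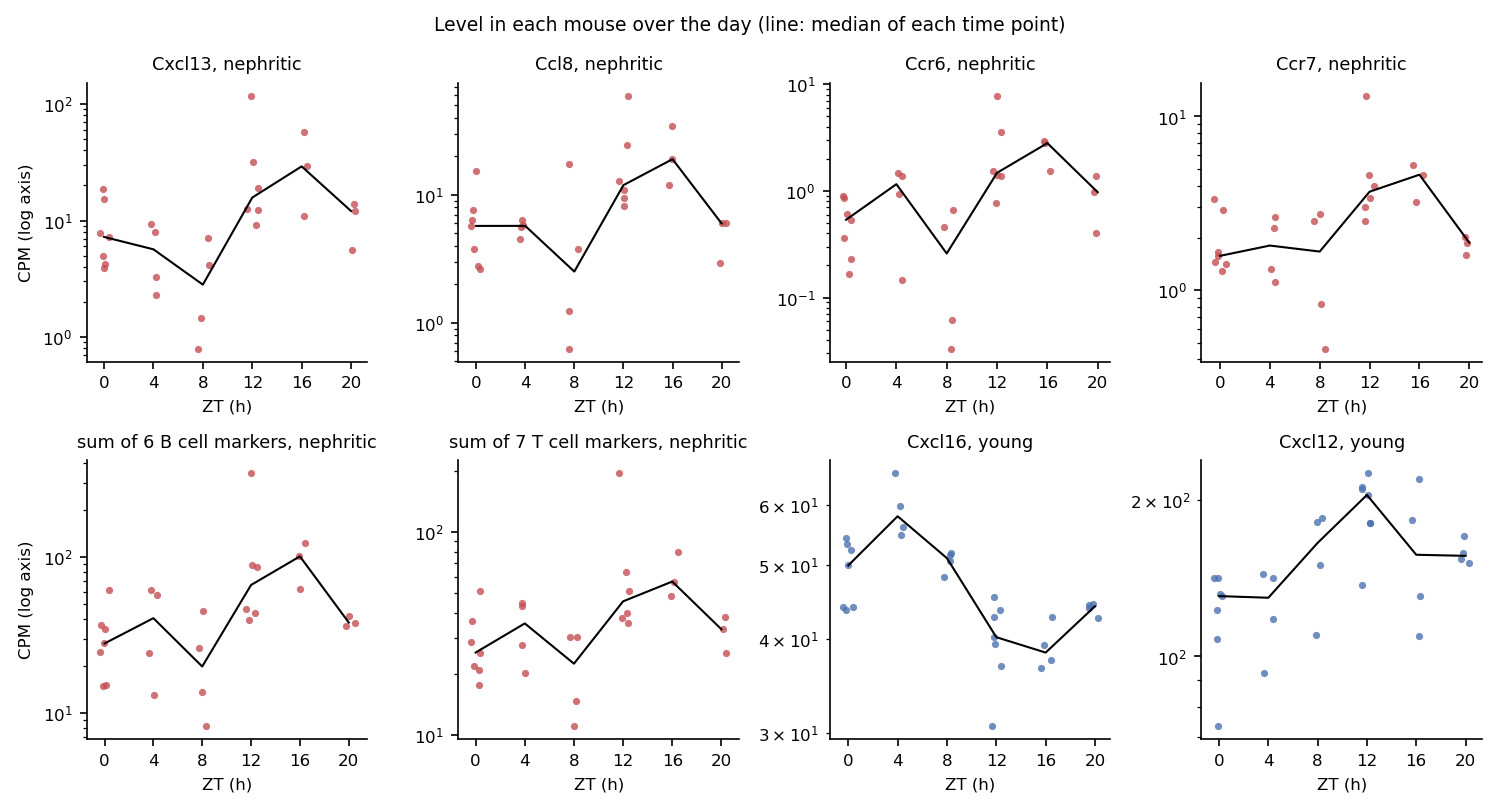
Level in each mouse (CPM, log axis) against Zeitgeber time for Cxcl13, Ccl8, Ccr6 and Ccr7 and for the summed B cell and T cell markers in 27 nephritic mice, and for Cxcl16 and Cxcl12 in 30 young mice, with the median of each time as a line. The nephritic panels share a low median at ZT8 or ZT0 and the highest at ZT16, and Cxcl16 in young mice is highest at ZT4.

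Lymphocyte markers moved with the same times. In nephritic mice 6 of 6 B cell markers, 7 of 7 T cell markers and 3 of 4 plasma cell markers varied with time, and 0 of 8 macrophage and dendritic cell markers did. The summed macrophage and dendritic cell markers still had their lowest median at ZT8, 322 CPM against 515.5 to 706 CPM at the other times. The 2 tubular injury genes summed to medians of 310, 287, 79.7, 227, 70.8 and 267 CPM from ZT0 to ZT20. The summed B cell markers had medians of 27.9 CPM at ZT0, 40.6 at ZT4, 19.9 at ZT8, 66.2 at ZT12, 101 at ZT16 and 38.0 at ZT20, over a range of 8.22 to 346 CPM, and the summed T cell markers of 25.5, 35.5, 22.5, 45.6, 57.03 and 33.2 CPM. All 3 adipocyte markers varied too, with a summed median of 341 CPM at ZT16 and 32.02 at ZT4, and all 4 adrenal cortex markers, whose sum reached 1036 CPM in 1 mouse at ZT0 and stayed at 11.5 CPM or less at the other times. Each mouse was sampled once, and the 3 to 7 mice of each time may also have differed in severity of disease. The part of severity, of these tissues and of lymphocyte content in the time differences was not tested. Without HIL5RU, 11 genes passed, and without RX11RU, 9 did. Without the ZT16 mouse RX9RU 7 genes passed, and Ccl4 (adjusted p = 0.169), Ccl8 (0.0694), Cxcr3 (0.0556) and Cxcr5 (0.0642) did not. Ccl27a was lost without RX7LU (0.0601) or RX10RU (0.0559), Cxcr4 without RX11RU (0.0608), and Cxcr5 also without CRS6LU, RX7LU, RX11RU or RX8LL (0.0518 to 0.0624). Cxcl13, Ccl19, Ccl3, Ccr6 and Ccr7 passed whichever mouse was left out, and of these Ccl3 and Ccr6 did not pass in a cosinor fit.

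Whether the time course itself differed between young and nephritic mice was tested as an interaction. 0 of 48 genes passed in edgeR's test, where 6.27% of 17521 genes did, and 10 had an unadjusted p under 0.05. DESeq2 called 5 (Ccl4, Ccl8, Ccr3, Cxcl13 and Cxcr5), and 2186 of all 17521 genes. The lowest adjusted p were those of Cxcl13 (0.0625), Ccl4 (0.0667) and Cxcr5 (0.0677). Leaving out 1 mouse brought up to 4 genes past the threshold, with 4 without RX10RU, 3 without RX10RL, 2 without ZT120 and 1 without RX10LU. So the 8 genes called in young mice and the 11 called in nephritic mice, of which Ccl4 was called in both, are not shown to differ in their time course. In the same test 6 of 6 B cell markers and 4 of 7 T cell markers passed.

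Among nephritic mice the family did not vary as a single block. Over the 37 genes with a mean of at least 1 CPM, Pearson correlations of log2 CPM across the 27 mice are given as a description, since all values of a mouse come from 1 library, and the mice differ in time of day and immune cell content. Cxcl13 varied with the lymphocyte receptors, at a median r of 0.83 over 7 (0.60 to 0.88), and less with Cxcl1 (0.31) and Cxcl2 (0.45). Ccl2 had the reverse order, at a median r of 0.455 with the lymphocyte receptors and 0.69 and 0.91 with Cxcl1 and Cxcl2. Cxcl13 and Ccl8 had an r of 0.90, and Cx3cr1 and Ccr2 varied together (0.93). Cxcl12 was negatively related to many, among them Ccl2 (-0.57), Cxcl2 (-0.63) and Ccr1 (-0.70).

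**Figure D4:**
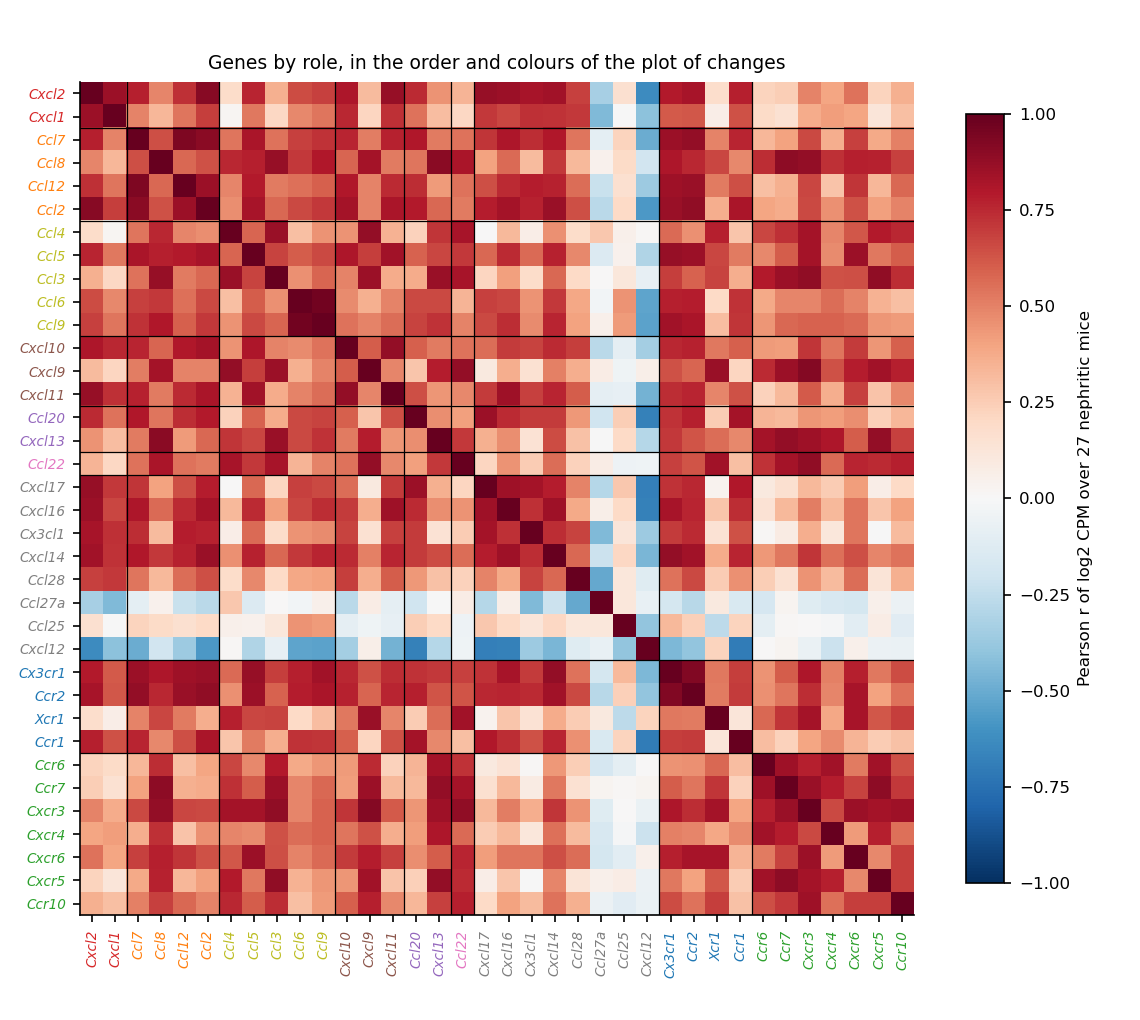
Pearson r of log2 CPM (colour, from -1 to 1) between 36 chemokine and receptor genes over 27 nephritic mice, ordered and coloured by role as in the plot of changes. Cxcl13 is dark red against the lymphocyte receptors, Ccl2 is dark red against Cxcl2 (0.91), and the rows of Cxcl12 and Ccl27a are pale or blue.

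The genes outside the family whose level was most like these over the 27 nephritic mice were, for Cxcl13, Syk (r = 0.94), Bin2 (0.93), Grap2 (0.93), Lck (0.93) and Zap70 (0.93). For Ccl2 they were Nfkbie (0.94), Ptger4 (0.93), Tlr2 (0.93), Csf1 (0.92) and Nfkb2 (0.92), and for Cx3cr1 Casp4 (0.95), Neurl3 (0.95), Tgfb1 (0.94), Tgfbi (0.94) and Ifi202b (0.94). Lck and Zap70 are kinases of T cell receptor signalling, and Nfkbie and Nfkb2 belong to the NF-kappaB system.

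Of 20 other genes of the pathway (atypical receptors, platelet chemokines, chemerin and its receptor, a peptidase and genes that act downstream of the receptors), 15 were higher and 2 lower in nephritic than in young mice, with a median log2 difference of 1.17. Over all genes, 28.1% were higher and 33.9% lower. Rgs1, a brake on receptor signalling in lymphocytes, differed by 3.31 ± 0.25 and Rac2, a leukocyte GTPase of migration, by 3.01 ± 0.18. The decoy receptor Ackr2 differed by 1.13 ± 0.16, Ackr3, the scavenger of Cxcl12, by -0.15 ± 0.06 (adjusted p = 0.0416), Ackr4 by 0.01 ± 0.10 (adjusted p = 0.963), and the chemokine-trimming peptidase Dpp4 by -0.26 ± 0.07 (adjusted p = 0.000621). Against nephritic mice, 1 was higher in remission (Cmklr1, the chemerin receptor, 0.67 ± 0.14) and 1 lower (Ppbp, a platelet ligand of Cxcr2, -3.02 ± 0.68, adjusted p = 0.002). Against young mice 14 of 18 were higher and 1, Dpp4, lower.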

How the data were processed

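Kidney RNASeq of 65 mice (30 young, 27 nephritic, 8 in remission) and 4 repeat libraries was used. The deposited files hold whole-number read counts per gene symbol, which the authors made from poly-A RNA, read in pairs per the labels, although the methods also state single-ended cycles. Their methods describe Burrows-Wheeler alignment and counting of uniquely aligned reads, and the submitters' processing notes name HISAT and mm10. Whether counting used strand is not given in the sources used here. Of 24538 symbols, 15 with empty cells in all libraries were left out. Uniquely aligned reads can leave genes with near-identical copies uncounted.

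Counts were tested with edgeR 4.0.16 (TMM factors, quasi-likelihood) on genes whose summed count reached 100 in the fitted mice, with Benjamini-Hochberg adjustment over all genes and a threshold of 0.05. SE is the absolute log2 change over the root of F. Nephritic against young mice was fitted with time and sequencing set as covariates, the 6 times within a group with set, and remission mice at ZT0 and ZT12 with time. Sets were taken from mouse names. CPM used TMM factors over 69 libraries, and log2 CPM a prior count of 2. Exon lengths came from GENCODE vM21 (GRCm38), positions from RefSeq, and sequences from RefSeq (GRCm38.p6). The fits were tested on simulated counts. Alternatives were DESeq2 1.42.0, limma 3.58.1 on log2 CPM, other size factors, no count filter, a cosinor fit, and subsets of mice, with those leaving out RX11RU or HIL5RU added after the data were seen. Figures used Python 3.11.15 and matplotlib 3.10.9.

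The genes, lists and tests were chosen with earlier results of these data known, and the role groups after values were seen. Values are given in full for Cxcl13, Ccl2 and Cx3cr1, the 5 largest called changes in each direction of a comparison, every gene called over time, and up to 3 genes of smallest p where none passed; other genes are given as examples by highest mean CPM in their role group, and genes outside the family as the 5 most correlated with each of the first 3. A mouse is the replicate. Of the 49 genes, 1 is counted in all totals and is not reported here by name or drawn.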

Additional observations from a re-analysis of the deposited data

Results flagged for a closer look

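In 125 sets of 4 to 8 mice (those of 1 group and time, and the 8 remission mice together), over the chemokine genes named with full values, 21 sets had a highest mouse further from the rest than Dixon's 95% limit, in 11 genes. Chance gives about 1 in 20 sets where values are normally spread. These values are CPM on a linear scale, no set had its lowest mouse past the limit, and the sets share mice. Of the 21, 8 were the nephritic ZT12 mouse HIL5RU, each time the highest: Cxcl13 at 118.0 CPM, Cx3cr1 at 83.56, Ccl3 at 10.47, Ccl4 at 13.79, Ccl8 at 59.36, Ccr7 at 13.17, Cxcr3 at 30.63 and Cxcr5 at 16.99 CPM. The same mouse had the highest summed B cell (346 CPM) and T cell (195 CPM) markers of the nephritic group, whose part was not tested.

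Among the other nephritic mice, RX10RU at ZT8 had 37.0 CPM of Cx3cr1 and 3.76 CPM of Ccl4. CRS6LU at ZT0 had 15.33 CPM of Ccl8 and 7.103 CPM of Cxcr3, CRS6LL at ZT0 had 2.945 CPM of Ccl3, and RX12LU at ZT4 had 0.2364 CPM of Ccl19. Among young mice, ZT8LL had 1.774 CPM of Cxcl13 at ZT8, ZT20LU 6.897 CPM of Cx3cr1 at ZT20, ZT00 6.042 CPM of Cxcl1 at ZT0, and ZT0RU 1.251 CPM of Cxcl11 at ZT0. Among remission mice, s14 had 41.16 CPM of Cxcl13 and 6.082 CPM of Ccl4, and s12 had 12.19 CPM of Cxcl1.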

How the results depend on the processing

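The 43 chemokine genes higher in nephritic than in young mice were 39 to 44 under every alternative run. Over time in young mice, 5 passed in the larger sequencing set alone, 12 in a cosinor fit (6 of them shared) and 12 in DESeq2 (8 shared), and 6 to 13 without 1 mouse. Over all genes these 3 settings called 5733 of 16267, 6573 of 16521 and 7608 of 16521. Over time in nephritic mice, a cosinor fit called 4, a fit with Lcn2 as covariate called 17, and leaving out 1 mouse gave 7 to 15 (15 without RX10RU). Of all 16872 genes, the cosinor fit called 362 and the fit with Lcn2 called 6573. The difference in time course called 5 in DESeq2, 2 in the larger set alone (Ccl4 and Ccr10), and 0 to 4 without 1 mouse, while limma, other size factors, no filter and the cosinor fit called 0. Over all genes DESeq2 called 2186 of 17521, the larger set 1715 of 17339 and the cosinor fit 121 of 17521. Leaving out 1 remission mouse gave 15 to 17 genes called against nephritic mice (13 to 15 lower) and 30 to 31 against young mice. With run as covariate, 1 gene was higher in remission than in nephritis with 4 or 3 repeats. Against young mice 20 and 17 genes were then called, all higher, and 17 and 15 of these were shared. In those fits against young mice 2225 of 16941 and 1589 of 16919 genes were called in all. No called value changed sign. The causes of these shifts were not tested. No paired analysis was possible because replicate numbers only name mice. Genes under about 1 CPM rest on few reads per library, and the remission mice had the shallowest first libraries.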

Other observations

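All 5 proximal tubule markers fell in nephritis relative to young mice, with summed levels of 1434 to 10360 CPM against 8060 to 12760 CPM, and 4 of 5 were lower in remission than in young mice. Of 4 lymphatic endothelium markers, Lyve1 and Pdpn were higher and Prox1 lower in nephritic mice, and Prox1 and Flt4 were higher in remission than in nephritis. The adipocyte markers passed in 0 of 3 between nephritic and young mice, and podocyte markers in 1 of 3, higher. Adrenal cortex markers summed to 3.74 to 1546 CPM in young, 4.55 to 1036 CPM in nephritic and 2.93 to 8.14 CPM in remission mice, and 4 of 4 were lower in remission than in young mice. Of 4 plasma cell markers, 3 were higher in nephritic than in young mice and 0 passed between remission and nephritis.

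Over time of day, 10 of 19 other genes of the chemokine pathway varied in young mice, where 39.8% of all genes did. In nephritic mice 7 of 20 varied, where 21.6% of all genes did. In edgeR's test with Benjamini-Hochberg adjustment 2 of 20 differed in time course, where 6.27% of all genes did. These were Dock2 (adjusted p = 0.0161) and Ppbp (adjusted p = 0.0124).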
